A study of Mus musculus with 20 samples.

Results

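Expression of 10 autophagy genes was followed through 20 mouse heart arrays: Sqstm1, Map1lc3a, Map1lc3b, Gabarapl1, Bnip3, Ulk1, Becn1, Ctsl, Lamp1 and Tfeb. They were represented by all probes whose gene name in the scanner files was one of these names, which gave 13 probes for 10 genes among 41174 probes for 27670 names. Map1lc3b, Gabarapl1 and Ulk1 had 2 probes each, and Tfeb appeared under its older name Tcfeb. The group was chosen by the rise of Sqstm1 in MuRF1 -/- hearts after 8 weeks of fenofibrate, so that comparison is given here as a description with no test.

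Autophagy encloses cell material in a double membrane and delivers it to lysosomes for breakdown. Sqstm1 (p62) is the receptor that ties ubiquitinated cargo to the membrane, and the LC3 and GABARAP proteins sit on that membrane and bind such receptors. Ulk1 starts the process, Becn1 belongs to the lipid kinase complex that follows, cathepsin L and Lamp1 belong to the lysosome, and Tfeb is a transcription factor of lysosomal genes. In heart muscle the same machinery clears mitochondria, for which Bnip3 is a receptor on the mitochondrial surface.

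The study compared hearts of MuRF1 +/+ and MuRF1 -/- mice, MuRF1 (Trim63) being a muscle ubiquitin ligase, on chow or on chow with 0.05% fenofibrate by weight, an agonist of the nuclear receptor PPAR-alpha. For each genotype there were 3 chow hearts, 4 hearts after 3 weeks of fenofibrate and 3 hearts after 8 weeks, each a biological replicate on an array of its own. The chow hearts carry the 8-week label, so both feeding times were set against the same chow hearts and 3 weeks had no chow control of its own. How the knockout was made and the age at the start of feeding are not given in the labels, and the series text speaks of mice aged 3 to 8 weeks. Each value is the log2 ratio of heart RNA over one reference, RNA pooled from newborn (day 1) C57BL/6 pups, hybridised to all arrays. A ratio of whole hearts cannot tell fewer cells of a type from less RNA per cell.

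Between 34% and 52% of probes were well above background in the heart channel, and correlations between arrays ran from 0.766 to 0.990. Trim63 lay between -1.19 and -0.49 on the MuRF1 -/- arrays and between 0.79 and 2.85 on the MuRF1 +/+ arrays, so each array matched its genotype label. The 8 cardiomyocyte markers averaged 3.07 to 4.04 on all arrays. The Y-linked transcripts Ddx3y and Eif2s3y were both above background in 3 of 3 chow hearts of either genotype, but in 0 of 7 MuRF1 +/+ hearts on fenofibrate. Among MuRF1 -/- hearts on fenofibrate 0 of 4 had both after 3 weeks, and 2 of 3 did after 8 weeks, the exception being replicate 2. Diet and sex-linked transcripts therefore cannot be told apart in 3 of the 4 comparisons with chow. A model with the Y-linked level added takes its slope from differences within groups, which were widest among the 8-week MuRF1 -/- hearts. A call kept or lost under that model does not separate diet from sex-linked transcripts in those comparisons. MuRF1 +/+ replicate 2 at 8 weeks and MuRF1 -/- replicate 4 at 3 weeks stood apart from their groups on principal components.

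Promoters are shown for Sqstm1, Gabarapl1 and Bnip3, the members that rose past the threshold from 3 to 8 weeks in both genotypes. Lamp1 is shown as a member that did not. Ctsl, which passed in that step in MuRF1 +/+ hearts only, is described without its letters. RefSeq windows of build GRCm38.p6 were found for 8 of the 10 members (10 windows, 3 of them for Tfeb), and the 250 bases before the start are printed 5′ to 3′ on the gene's strand. The 4 motifs searched on both strands were CACGTG (the E-box inside the element bound by Tfeb), TGACNNNGC (the core of the antioxidant response element), GTAAACA (bound by FoxO factors) and AGGTCA the half-site of nuclear receptors). None overlaps another in these windows, and capitals mark each match.
Sqstm1, chr11:50210821-50211070, minus strand: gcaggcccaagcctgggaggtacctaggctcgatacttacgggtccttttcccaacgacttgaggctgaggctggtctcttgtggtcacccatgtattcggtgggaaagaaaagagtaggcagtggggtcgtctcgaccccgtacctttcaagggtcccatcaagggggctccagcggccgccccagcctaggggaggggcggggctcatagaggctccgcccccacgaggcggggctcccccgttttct
Gabarapl1, chr6:129532942-129533191, plus strand: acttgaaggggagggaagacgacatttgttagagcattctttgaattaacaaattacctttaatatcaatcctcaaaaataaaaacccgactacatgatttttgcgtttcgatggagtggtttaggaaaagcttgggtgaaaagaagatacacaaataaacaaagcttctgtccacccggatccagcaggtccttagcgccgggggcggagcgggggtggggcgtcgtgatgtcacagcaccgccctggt
Bnip3, chr7:138909507-138909756, minus strand: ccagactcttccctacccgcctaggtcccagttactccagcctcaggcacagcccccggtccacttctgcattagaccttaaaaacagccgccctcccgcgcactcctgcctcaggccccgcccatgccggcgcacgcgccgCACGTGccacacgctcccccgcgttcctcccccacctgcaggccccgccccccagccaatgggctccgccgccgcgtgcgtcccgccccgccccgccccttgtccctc
Lamp1, chr8:13158911-13159160, plus strand: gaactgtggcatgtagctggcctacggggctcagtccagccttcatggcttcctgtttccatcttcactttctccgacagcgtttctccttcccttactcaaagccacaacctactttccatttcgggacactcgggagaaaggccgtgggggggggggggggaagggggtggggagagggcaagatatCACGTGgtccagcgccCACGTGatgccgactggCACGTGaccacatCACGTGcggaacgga
The Sqstm1 and Gabarapl1 windows hold none of the 4 motifs. Bnip3 has 1 E-box, 108 to 103 bases before the start, and Lamp1 has 4 between 61 and 10 bases before the start. Ctsl has 1 as well, in a window that lies inside its annotated gene. E-boxes were in 3 of the 10 member windows and in 6.02% of all 32851 windows of this length, and the other motifs were in none of the 10, against 10.2% for TGACNNNGC, 3.17% for GTAAACA and 14% for AGGTCA. A match is a description of the letters only.

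Sqstm1 was high in every heart fed fenofibrate for 8 weeks, in both genotypes. In MuRF1 +/+ hearts its log2 ratio was 0.58, 0.80 and 0.49 on chow, 0.74, 0.97 and 0.87 after 3 weeks (the spot of replicate 4 was an outlier and is left out) and 2.30, 1.79 and 2.16 after 8 weeks. The MuRF1 -/- values were 1.15, 0.76 and 0.82 on chow, 0.65, 0.82, 0.73 and 0.86 after 3 weeks and 2.51, 2.05 and 2.45 after 8 weeks. All 6 hearts fed for 8 weeks were above all 13 measured others, with no overlap. In MuRF1 +/+ hearts Sqstm1 rose 2.75-fold over chow at 8 weeks (log2 difference 1.46 ± 0.16 SE, n = 3 and 3, limma adjusted p = 3.85e-05) and 2.34-fold over 3 weeks (1.22 ± 0.16, n = 3 and 3, limma adjusted p = 7.62e-05). At 3 weeks it differed from chow by 0.24 ± 0.16 in MuRF1 +/+ hearts (limma adjusted p = 0.291) and by -0.15 ± 0.15 in MuRF1 -/- hearts (limma adjusted p = 0.503). The MuRF1 -/- 8-week value, the one that chose the group, was 1.43 above chow. The 3-week and 8-week MuRF1 +/+ hearts all lacked the Y-linked transcripts, but the X-linked Xist RNA averaged -0.30 at 3 weeks, -1.88 at 8 weeks and -4.06 on chow, and its part in the result was not tested. Leaving out MuRF1 -/- replicate 2, where all remaining 8-week and chow hearts had the Y-linked transcripts, the difference from chow was 1.57. It is the same contrast that chose the group, so the value is a description only, and the part of sex was not tested. Within slides, told apart by the scan named in the file headers (the slide number in 4 headers disagrees with it), the 8-week difference from chow was 1.299 and 1.499 in MuRF1 +/+ hearts.

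Bnip3, the mitochondrial receptor, was also high at 8 weeks but uneven between hearts. In MuRF1 +/+ hearts it was at -0.33, -0.29 and -0.21 on chow, at -0.56, -0.69, -0.72 and -0.62 after 3 weeks and at 1.98, -0.32 and 1.27 after 8 weeks. Replicates 1 and 3 at 8 weeks stood far above chow, while replicate 2 lay within the chow range. The MuRF1 -/- values were 0.18, -0.10 and -0.15 on chow, at -0.39, -0.36, -0.53 and -1.22 after 3 weeks and at 0.18, 0.70 and 0.49 after 8 weeks. Bnip3 rose 2.39-fold over chow in MuRF1 +/+ hearts at 8 weeks (1.25 ± 0.36 SE, n = 3 and 3, limma adjusted p = 0.0282). Without the 2 arrays that stood apart this difference was 1.90. It missed the threshold with the slide as a block (adjusted p = 0.0514), when the Y-linked level was added to the model (adjusted p = 0.507), and without MuRF1 +/+ 8-week replicate 1 or 3 or any one chow heart (adjusted p = 0.0618 to 0.0877). Against 3 weeks Bnip3 rose 3.09-fold in MuRF1 +/+ hearts (1.63 ± 0.34, n = 3 and 4, limma adjusted p = 0.00293), and all 8-week hearts were above all 3-week hearts in both genotypes. The MuRF1 -/- 8-week group lay above chow by 0.48 ± 0.36 and rose over 3 weeks by 1.08 ± 0.34 (n = 3 and 4, limma adjusted p = 0.0207). That call was lost on removing 3-week replicate 4 or else 8-week replicate 2 or 3 (adjusted p = 0.0567, 0.0848 and 0.0631), and with the slide as a block (0.95, adjusted p = 0.0786).

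**Figure D1:**
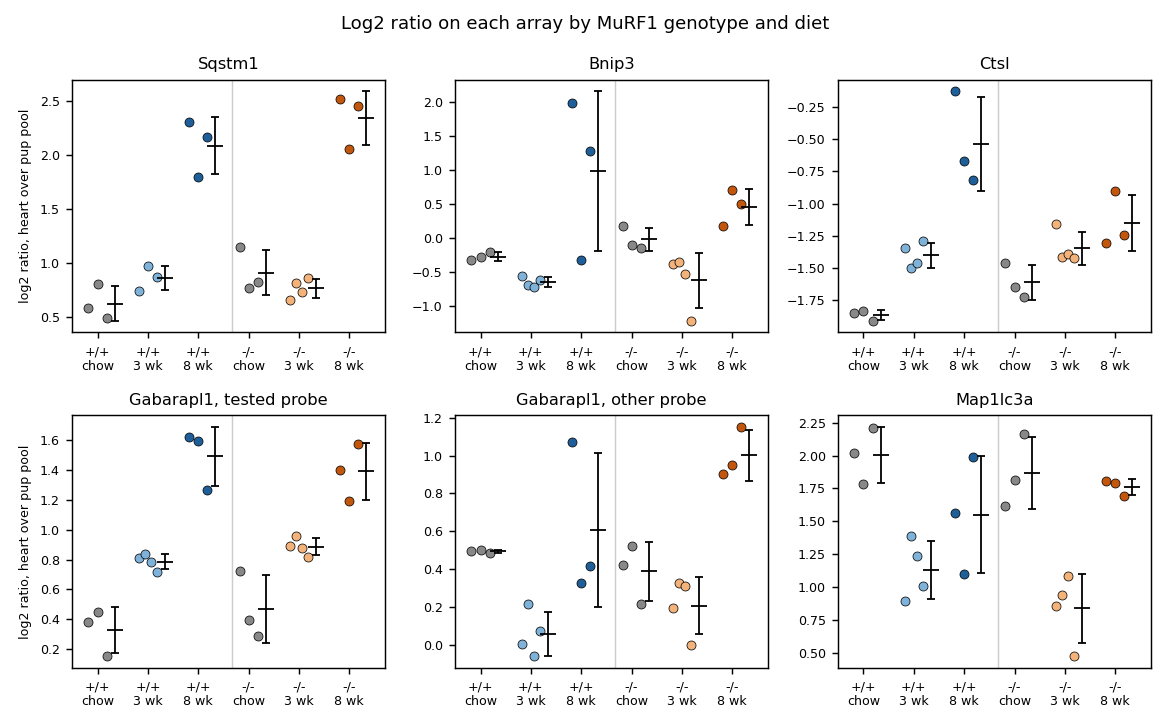
Log2 ratio of heart over pup pool (vertical axis) on each array for 5 genes, Gabarapl1 with both of its probes, by MuRF1 genotype and diet (horizontal axis); points are arrays and the bar beside each group is the mean with its SD. Sqstm1 sits between 1.79 and 2.51 in the 6 hearts fed for 8 weeks and between 0.49 and 1.15 in the rest.

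Gabarapl1, a GABARAP family protein of the autophagosome membrane, gave different answers at its 2 probes. The brighter probe, the one used for the gene, was at 0.38, 0.44 and 0.15 on chow, at 0.81, 0.84, 0.78 and 0.72 after 3 weeks and at 1.62, 1.59 and 1.26 after 8 weeks in MuRF1 +/+ hearts. Its MuRF1 -/- values were 0.72, 0.40 and 0.28, then at 0.89, 0.96, 0.88 and 0.82, then at 1.40, 1.19 and 1.58. The 3 diets did not overlap in either genotype at this probe. It rose 1.38-fold at 3 weeks (0.46 ± 0.13 SE, n = 4 and 3, limma adjusted p = 0.0129) and 2.25-fold at 8 weeks (1.17 ± 0.14, n = 3 and 3, limma adjusted p = 5.73e-05) in MuRF1 +/+ hearts, and 1.34-fold at 3 weeks in MuRF1 -/- hearts (0.42 ± 0.13, n = 4 and 3, limma adjusted p = 0.0204). The other probe fell at 3 weeks in MuRF1 +/+ hearts (-0.44 ± 0.14, limma adjusted p over all tested probes = 0.0276) and differed from chow at 8 weeks by 0.11 ± 0.15 (limma adjusted p = 0.621). The 2 probes thus moved in opposite directions at 3 weeks in MuRF1 +/+ hearts. The 3-week calls of the brighter probe were lost without MuRF1 +/+ chow replicate 3 (adjusted p = 0.0914) and without MuRF1 -/- chow replicate 2 or 3 (adjusted p = 0.0787 and 0.125). Between 3 and 8 weeks both rose in both genotypes: by 0.70 ± 0.13 and 0.55 ± 0.14 in MuRF1 +/+ hearts (limma adjusted p = 0.000941 and 0.0115) and by 0.50 ± 0.13 and 0.79 ± 0.14 in MuRF1 -/- hearts (limma adjusted p = 0.00553 and 0.000362). For the brighter probe these calls were lost in the authors' deposited log2 values (0.29, adjusted p = 0.406, and 0.52, adjusted p = 0.0861), and the MuRF1 -/- one with the Y-linked level in the model (adjusted p = 0.133). In the 8-week MuRF1 -/- hearts they lay 0.92 and 0.61 above chow.

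Map1lc3a and Map1lc3b, the LC3 proteins of the autophagosome membrane, were lowest at 3 weeks. Map1lc3a was at 2.02, 1.79 and 2.21 on chow, at 0.89, 1.39, 1.23 and 1.01 after 3 weeks and at 1.56, 1.10 and 1.99 after 8 weeks in MuRF1 +/+ hearts. The corresponding MuRF1 -/- values were 1.62, 1.81 and 2.16, then at 0.86, 0.94, 1.08 and 0.47, then at 1.80, 1.79 and 1.69. All 3-week hearts were below the chow hearts of their genotype. Map1lc3a fell 1.83-fold in MuRF1 +/+ hearts (-0.87 ± 0.19 SE, n = 4 and 3, limma adjusted p = 0.00259) and 2.04-fold in MuRF1 -/- hearts (-1.03 ± 0.19, n = 4 and 3, limma adjusted p = 0.000668). After adding the Y-linked level to the model these differences were -0.98 (adjusted p = 0.13) and -1.13 (adjusted p = 0.0815). At 8 weeks Map1lc3a differed from chow by -0.45 ± 0.20 in MuRF1 +/+ hearts (limma adjusted p = 0.128, and 0.0343 without replicate 3) and lay -0.10 ± 0.20 from it in MuRF1 -/- hearts.

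Map1lc3b fell 1.56-fold at 3 weeks in MuRF1 -/- hearts (-0.65 ± 0.19 SE, n = 4 and 3, limma adjusted p = 0.0159), and in MuRF1 +/+ hearts it differed from chow by -0.46 ± 0.19 (limma adjusted p = 0.08). Its tested probe was at 0.77, 0.56 and 0.59 on chow, at 0.28, 0.15, 0.13 and 0.16 after 3 weeks and at 1.18, 0.13 and 0.83 after 8 weeks in MuRF1 +/+ hearts. Across MuRF1 -/- hearts they were 0.75, 0.70 and 0.48, then at 0.01, 0.30, 0.10 and -0.42, then at 0.69, 0.89 and 0.83. Again all 3-week hearts were below chow, and the low value of MuRF1 +/+ at 8 weeks was replicate 2. The MuRF1 -/- call was lost without chow replicate 1 or 2 (adjusted p = 0.0562 and 0.0559). The other probe differed from chow at 3 weeks by -0.55 ± 0.32 and -0.45 ± 0.32 (limma adjusted p = 0.223 and 0.328). Between 3 and 8 weeks Map1lc3b rose 1.75-fold in MuRF1 -/- hearts (0.81 ± 0.19, n = 3 and 4, limma adjusted p = 0.00313), beside Map1lc3a (0.92 ± 0.19, limma adjusted p = 0.00124). In MuRF1 +/+ hearts the same step was 0.53 ± 0.19 for Map1lc3b and 0.42 ± 0.19 for Map1lc3a (limma adjusted p = 0.0553 and 0.135). Without the 2 arrays that stood apart both passed, at 0.82 and 0.64.

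**Figure D2:**
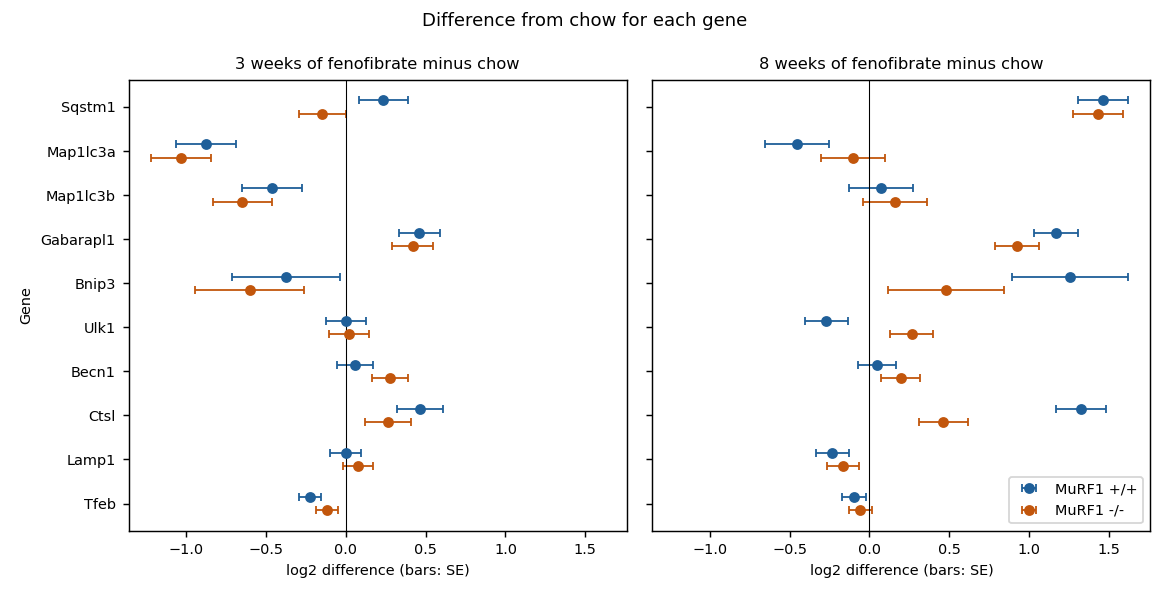
Log2 difference from chow (horizontal axis) after 3 weeks (left) and 8 weeks (right) of fenofibrate for the tested probe of each gene, in MuRF1 +/+ and MuRF1 -/- hearts; points are differences of group means and bars are SE. Sqstm1 lies at 1.46 and 1.43 at 8 weeks, Ctsl at 1.32 and 0.46, and Tfeb is dim throughout.

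Ulk1, the starting kinase, and Becn1, of the lipid kinase complex, did not pass the test in any of the comparisons here. At 3 weeks Ulk1 differed from chow by 0.00 ± 0.13 SE in MuRF1 +/+ and 0.02 ± 0.13 in MuRF1 -/- hearts. At 8 weeks its group means were 0.28 on chow and 0.01 on fenofibrate in MuRF1 +/+ hearts, against 0.13 and 0.40 in MuRF1 -/- hearts. Every 8-week heart was below the chow mean in MuRF1 +/+ mice and above it in MuRF1 -/- mice, at both probes, with no overlap with chow at the tested one. The difference from chow in MuRF1 +/+ hearts was -0.27 ± 0.13 (limma adjusted p = 0.168). The responses of the genotypes differed by 0.53 ± 0.19 (limma adjusted p = 0.226). Becn1 lay between -0.33 and 0.23 on all arrays, and its largest difference was 0.28 ± 0.11 at 3 weeks in MuRF1 -/- hearts (limma adjusted p = 0.08, and 0.0307 without 3-week replicate 4).

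Ctsl, the lysosomal protease cathepsin L, was raised at 8 weeks in MuRF1 +/+ hearts. It was at -1.85, -1.83 and -1.91 on chow, at -1.35, -1.50, -1.46 and -1.29 after 3 weeks and at -0.13, -0.67 and -0.82 after 8 weeks. Values of MuRF1 -/- hearts were -1.46, -1.65 and -1.73, then at -1.15, -1.41, -1.39 and -1.42, then at -1.30, -0.90 and -1.24. The diets did not overlap in MuRF1 +/+ hearts, while in MuRF1 -/- hearts the 3-week and 8-week hearts did. Ctsl rose 2.50-fold over chow at 8 weeks in MuRF1 +/+ hearts (1.32 ± 0.15 SE, n = 3 and 3, limma adjusted p = 5.73e-05) and 1.82-fold over 3 weeks (0.86 ± 0.14, n = 3 and 4, limma adjusted p = 0.000545). In the authors' deposited log2 values the latter was 0.52 (adjusted p = 0.173). After adding the Y-linked level to the model the 8-week difference from chow was 0.92 (adjusted p = 0.0874). At 3 weeks it rose 1.38-fold over chow in MuRF1 +/+ hearts (0.46 ± 0.14, n = 4 and 3, limma adjusted p = 0.0256), a call lost without replicate 1 or 4 of that group or any one chow heart (adjusted p = 0.055 to 0.0949) and with the slide as a block (adjusted p = 0.0514). With the Y-linked level in the model it was 0.04 (adjusted p = 0.927). Ctsl of MuRF1 -/- hearts differed from chow by 0.27 ± 0.14 at 3 weeks (limma adjusted p = 0.19) and lay 0.46 ± 0.15 above it at 8 weeks.

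Lamp1, a membrane protein of the lysosome, and Tfeb did not show the 8-week increase. Lamp1 lay between -0.06 and 0.22 in the 8-week hearts and between 0.08 and 0.35 in all others. Its differences at 8 weeks were -0.23 ± 0.10 SE from chow and -0.23 ± 0.10 from 3 weeks in MuRF1 +/+ hearts (limma adjusted p = 0.127 and 0.105) and -0.24 ± 0.10 from 3 weeks in MuRF1 -/- hearts (limma adjusted p = 0.0604). The MuRF1 +/+ differences passed without 8-week replicate 1, both at -0.32 (adjusted p = 0.0302 and 0.0355), and the MuRF1 -/- one without 3-week replicate 2 (-0.29, adjusted p = 0.031). The Tfeb probe was well above background on 6 of 20 arrays, of which 2 were MuRF1 +/+ chow, 2 MuRF1 -/- chow and 2 MuRF1 -/- hearts at 3 weeks. It was not well above background on all 4 MuRF1 +/+ arrays at 3 weeks, where it was lower than chow (limma adjusted p = 0.0256). The MuRF1 +/+ mean in the heart channel was 5.87 (log2) at 3 weeks and 6.03 on chow, where 2 of 3 arrays measured it. Raising the 3-week values to the lowest signal called above background gave 5.88. The 1.11-fold ratio of chow to that level is thus between values near the floor and sets no lower bound. The call was lost on removing 1 heart, either 3-week replicate 1 or 4 or else chow replicate 1 or 2 (adjusted p = 0.0511 to 0.17).

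**Figure D3:**
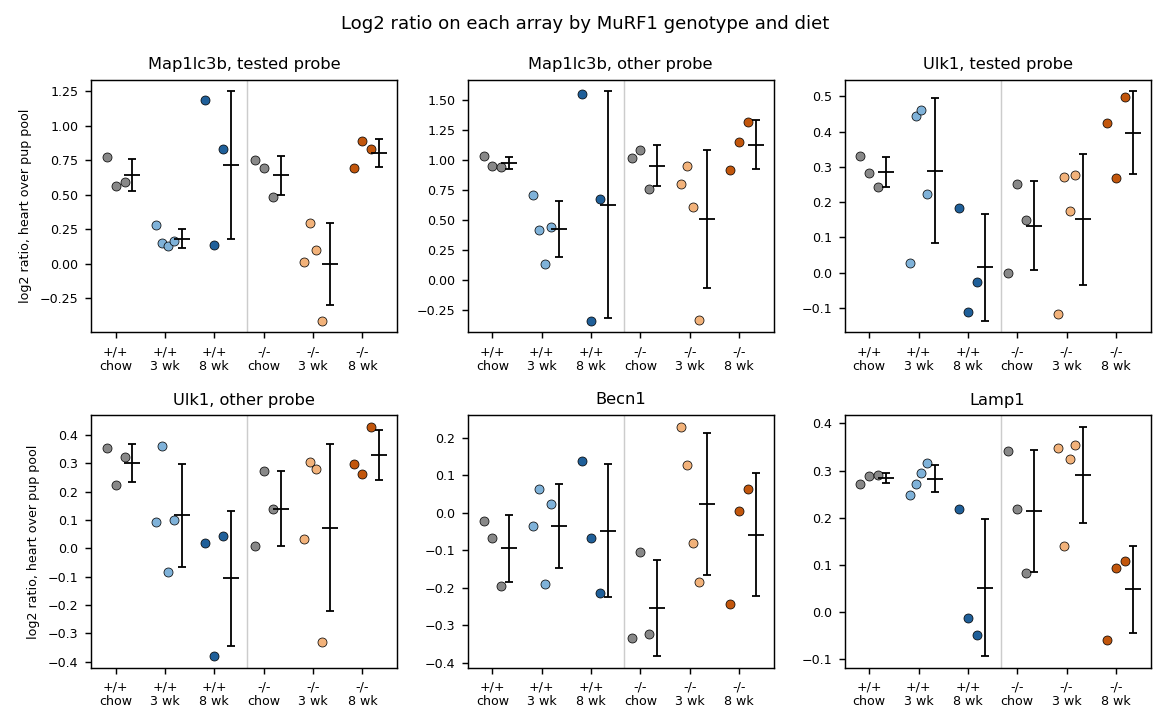
Log2 ratio of heart over pup pool (vertical axis) on each array for Map1lc3b and Ulk1, with both probes each, Becn1 and Lamp1, by MuRF1 genotype and diet (horizontal axis); points are arrays and the bar beside each group is the mean with its SD. Ulk1 group means go from 0.28 to 0.01 between chow and 8 weeks in MuRF1 +/+ hearts and from 0.13 to 0.40 in MuRF1 -/- hearts.

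Counted over the 10 genes with the tested probe of each, 4 passed the limma test at an adjusted p of 0.05 in MuRF1 +/+ hearts at 3 weeks against chow: Gabarapl1 and Ctsl rose, Map1lc3a and Tfeb fell. Tfeb was well above background on 0 of the 4 arrays at 3 weeks, so its fall lies near the floor and nothing is read from it. The other Gabarapl1 probe fell in this comparison (-0.44, limma adjusted p over all tested probes = 0.0276). The Gabarapl1 call was lost with the mean over probes, Agilent's ratio, the authors' log2 values and the heart channel alone. Of all 14563 tested genes 24.3% passed in this comparison. At the same time in MuRF1 -/- hearts 3 passed, Gabarapl1 upwards and Map1lc3a and Map1lc3b downwards, against 26.5% of all genes. The median difference of the members was 0.0018 and -0.048, and that of all genes 0.010 and -0.0078. In MuRF1 +/+ hearts at 8 weeks 4 passed, all upwards (Sqstm1, Gabarapl1, Bnip3 and Ctsl), against 13.9% of all genes. Fitted on these 2 groups alone 1 of them passed, Sqstm1, and in the authors' deposited log2 values 2 did, Sqstm1 and Ctsl. In MuRF1 -/- hearts at 8 weeks 2 of 10 were past that level (Sqstm1 and Gabarapl1), and 1.83% of all genes were; this is the contrast that chose the group, so the count is a description from which nothing is read. The 3-week and 8-week responses share their chow hearts. With the Y-linked level in the model 0 members passed at 3 weeks in either genotype, and Sqstm1 (1.81, adjusted p = 0.00407) and Gabarapl1 (1.27, adjusted p = 0.0248) passed at 8 weeks in MuRF1 +/+ hearts.

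Between 3 and 8 weeks of feeding 4 members rose and none fell in MuRF1 +/+ hearts (Sqstm1, Gabarapl1, Bnip3 and Ctsl), against 17.5% of all genes in either direction. In MuRF1 -/- hearts 5 rose and none fell (Sqstm1, Map1lc3a, Map1lc3b, Gabarapl1 and Bnip3), against 31.4% of all genes. The median difference was 0.48 and 0.38 over the members and 0.0070 and 0.0016 over all genes. The MuRF1 -/- hearts of this comparison include those that chose the group, and Sqstm1 was 1.58 higher there. Sex-linked transcripts differed in that step too: 0 of 4 hearts at 3 weeks and 2 of 3 at 8 weeks had the Y-linked ones. Xist averaged 0.01 and -3.43. With the Y-linked level in the model the Gabarapl1 call was lost and calls over all genes went from 4576 to 1958. The part of sex was not tested. Ctsl differed by 0.20 ± 0.14 SE in MuRF1 -/- hearts (limma adjusted p = 0.319).

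No member passed the test between genotypes. On chow 0 of 10 passed in limma, 0 at an unadjusted p under 0.05 and 0.0893% of all genes. At 3 weeks 0 of 10 passed, again 0 unadjusted, and 0.398% of all genes. At 8 weeks 0 of 10 passed, 2 unadjusted (Ulk1 and Ctsl), and 0.0755% of all genes. Ctsl was lower in MuRF1 -/- hearts at 8 weeks by 0.61 on the log2 scale (-0.61 ± 0.15 SE, n = 3 and 3, limma adjusted p = 0.0799), with no overlap. The Y-linked transcripts were above background in 2 of 3 MuRF1 -/- and 0 of 3 MuRF1 +/+ hearts there. With their level in the model the difference was -0.35 (adjusted p = 0.303), and in the authors' deposited log2 values -0.31 (adjusted p = 0.563). Without MuRF1 +/+ 8-week replicate 1 or 3 it passed (adjusted p = 0.0428 and 0.0363), Ulk1 passed without replicate 1 (0.47, adjusted p = 0.0308), and without the 2 arrays that stood apart Bnip3 passed at -1.17 (adjusted p = 0.00527). Leaving out replicate 1 also raised the calls over all genes from 11 to 3074, so these passes are not particular to the members. With array weights 1 member passed at 8 weeks.

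The responses themselves were compared between genotypes. At 3 weeks none of the 10 differed in limma (0 unadjusted, 0% of all genes), and at 8 weeks none did (2 unadjusted, Ulk1 and Ctsl, and 0.00687% of all genes); the latter includes the contrast that chose the group. The 8-week Ctsl response was smaller in MuRF1 -/- hearts by 0.86 (-0.86 ± 0.22 SE, limma adjusted p = 0.22). It passed without MuRF1 +/+ 8-week replicate 1 (-0.66, adjusted p = 0.0357), where the calls over all genes rose from 1 to 1384. Under the alternatives it ran from -1.05 to -0.36, with limma adjusted p up to 0.546. At 8 weeks 2 of 3 MuRF1 -/- and 0 of 3 MuRF1 +/+ hearts had the Y-linked transcripts, whose part was not tested. The Sqstm1 responses at 8 weeks differed by -0.03 ± 0.22, with a 95% interval from -0.46 to 0.40. Array weights gave 2 members past the threshold at 8 weeks.

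Other genes of the pathway were taken from a list of 59 further autophagy genes, of which 56 were tested. At 3 weeks 4 rose and 10 fell in MuRF1 +/+ hearts, and 6 rose and 10 fell in MuRF1 -/- hearts. These are 25% and 28.6% of the list, near the 24.3% and 26.5% of all genes, and 2 genes passed in each genotype with the Y-linked level in the model. Atg4d, a protease that processes LC3 proteins, fell in both (2.31-fold, limma adjusted p = 3.94e-05, and 2.43-fold, limma adjusted p = 1.19e-05). Rptor, the mTORC1 subunit raptor, fell 1.58-fold in MuRF1 +/+ hearts (limma adjusted p = 0.000261), and Atg13, a partner of Ulk1, fell 1.63-fold in MuRF1 -/- hearts (limma adjusted p = 0.00189). Nbr1, a cargo receptor like Sqstm1, rose 1.32-fold in MuRF1 +/+ hearts (limma adjusted p = 0.00195), and Bnip3l, the relative of Bnip3, rose 1.32-fold in MuRF1 -/- hearts (0.39, limma adjusted p = 0.016). Also among the largest passing differences, Bcl2l13, a mitochondrial receptor, fell 1.75-fold and Rubcn, an inhibitor of autophagosome maturation, rose 1.27-fold in MuRF1 +/+ hearts, and Sesn1, an inhibitor of mTORC1 signalling, rose 1.33-fold in MuRF1 -/- hearts.

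At 8 weeks 5 of these genes rose and 5 fell against chow in MuRF1 +/+ hearts, which is 17.9% of the list beside 13.9% of all genes. None passed when these groups were fitted alone or with the Y-linked level in the model. Ddit4, another inhibitor of mTORC1 signalling, rose 3.58-fold (limma adjusted p = 0.00539), Sesn1 rose 1.57-fold (limma adjusted p = 0.00575) and Foxo1 rose 1.45-fold (limma adjusted p = 0.0146). Atg4d fell 1.91-fold (limma adjusted p = 0.0016) and Rb1cc1, the FIP200 scaffold of the Ulk1 complex, 1.67-fold (limma adjusted p = 0.00893), while Rptor fell 1.45-fold and Atg10, an enzyme of the ATG12 conjugation step, 1.38-fold. From 3 to 8 weeks 8 rose and 2 fell in MuRF1 +/+ hearts (17.9% of the list beside 17.5% of all genes), among them Ddit4, up 4.21-fold (limma adjusted p = 0.000841). Those that fell were Rubcn, by 0.60 on the log2 scale, and Rb1cc1, by 0.49. Over the same step in MuRF1 -/- hearts 20 rose and 6 fell, so that 46.4% of the list passed beside 31.4% of all genes. Here 0 of the 4 hearts fed for 3 weeks and 2 of the 3 fed for 8 weeks had the Y-linked transcripts, and with their level in the model the count fell from 26 to 12 and that of all genes from 4576 to 1958. Atg13 rose 1.98-fold (limma adjusted p = 9.3e-05), the cargo receptor Optn 1.95-fold (limma adjusted p = 0.00928) and Atg4d 1.89-fold (limma adjusted p = 0.00025), and Rubcn fell by 0.59 on the log2 scale (limma adjusted p = 0.00011). The median difference of the list was 0.12 in that step and 0.02 in MuRF1 +/+ hearts. The 8-week MuRF1 -/- hearts lay above chow by 0.50 for Uvrag and 0.42 for Atg101, given as a description.

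Of 33 further lysosome genes 31 were tested. At 3 weeks 3 rose and 5 fell in MuRF1 +/+ hearts, and 4 rose and 10 fell in MuRF1 -/- hearts, which is 25.8% and 45.2% of the list beside 24.3% and 26.5% of all genes. With the Y-linked level in the model 0 and 2 passed. Gaa, the glycogen-degrading acid glucosidase, fell 1.97-fold and 2.32-fold (limma adjusted p = 0.00196 and 0.000314), and the protease Lgmn rose 1.56-fold and 1.53-fold (limma adjusted p = 0.00161 and 0.00202). Atp6v0a1, a subunit of the proton pump, fell 1.69-fold in MuRF1 -/- hearts (limma adjusted p = 2.74e-06). At 8 weeks 2 rose and 1 fell against chow in MuRF1 +/+ hearts, with cathepsin H (Ctsh) up 1.61-fold (limma adjusted p = 0.0164), in all 9.68% of the list beside 13.9% of all genes, and 0 passed with the Y-linked level in the model. From 3 to 8 weeks 4 rose and 1 fell in MuRF1 +/+ hearts and 11 rose and 4 fell in MuRF1 -/- hearts, or 16.1% and 48.4% of the list beside 17.5% and 31.4% of all genes. Gaa rose 1.74-fold and 2.27-fold (limma adjusted p = 0.0106 and 0.000323) and Lgmn fell 1.67-fold and 1.87-fold (limma adjusted p = 0.000822 and 6.23e-05). The acid lipase Lipa rose 1.51-fold in MuRF1 +/+ hearts, and the hydrolase Gusb fell 1.40-fold in MuRF1 -/- hearts.

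Sqstm1 is also a target of the oxidative stress factor NRF2, and 23 of 24 listed NRF2 genes were tested. At 8 weeks 3 rose and none fell in MuRF1 +/+ hearts, among them Maff, a small partner of NRF2 (2.48-fold, limma adjusted p = 0.00157), and Hmox1, heme oxygenase (1.66-fold, limma adjusted p = 0.0145). That is 13% of the list, beside 13.9% of all genes, and 0 passed with the Y-linked level in the model. At 3 weeks 3 rose and 3 fell in MuRF1 +/+ hearts, and 1 rose and 3 fell in MuRF1 -/- hearts, or 26.1% and 17.4% of the list beside 24.3% and 26.5%. The glutathione transferase Gstm1 was among those that fell, 1.43-fold and 1.65-fold (limma adjusted p = 0.0147 and 0.00143). Gsta4 fell 1.49-fold while Tkt and Srxn1 rose 1.38-fold and 1.32-fold in MuRF1 +/+ hearts, and Ephx1 fell 1.36-fold while Gclc rose 1.33-fold in MuRF1 -/- hearts. From 3 to 8 weeks 5 rose and 1 fell in MuRF1 +/+ hearts and 8 rose and none fell in MuRF1 -/- hearts (26.1% and 34.8% of the list beside 17.5% and 31.4% of all genes, and 4 in place of 8 with the Y-linked level in the model), with Gstm1 up 1.83-fold and 1.80-fold (limma adjusted p = 0.000529 and 0.000307). Maff rose 3.02-fold and Abcc1 fell 1.35-fold in MuRF1 +/+ hearts, and Gclm, of glutathione synthesis, rose 1.75-fold in MuRF1 -/- hearts, where it lay 0.44 above chow at 8 weeks.

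**Figure D4:**
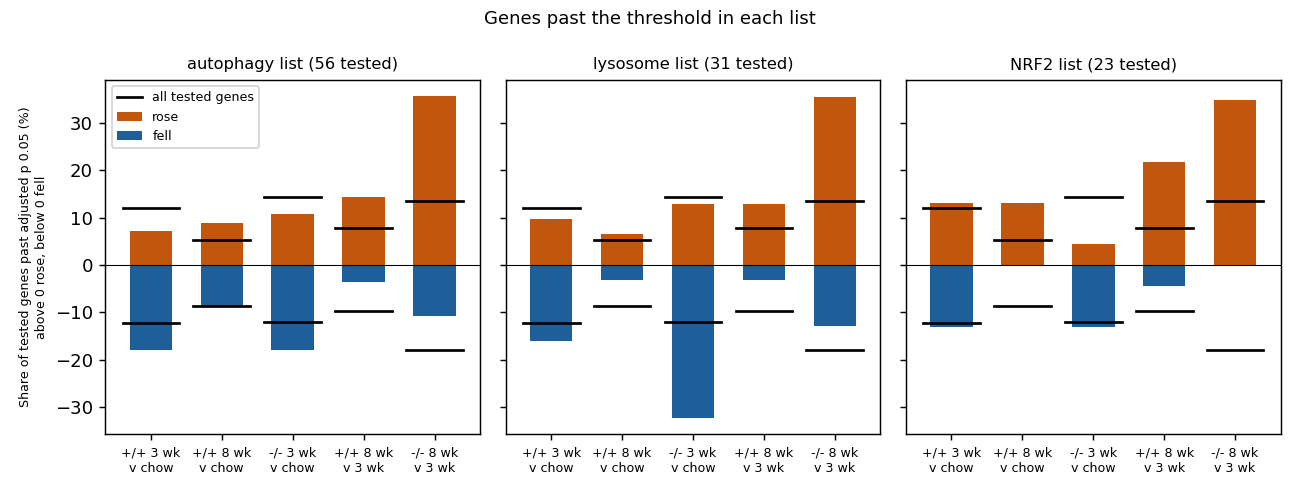
Share of tested genes past an adjusted p of 0.05 (vertical axis, rising genes above 0 and falling genes below) in the autophagy, lysosome and NRF2 lists for 5 comparisons (horizontal axis); black lines give the same share over all tested genes. In the step from 3 to 8 weeks in MuRF1 -/- hearts 20 of 56, 11 of 31 and 8 of 23 genes rose.

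Markers of other cell types moved with some of these comparisons. In MuRF1 +/+ hearts at 8 weeks 3 of 7 endothelial and 2 of 7 fibroblast markers rose over chow, and the mean log2 ratio of the endothelial list ran from 0.39 to 1.36 against 0.17 to 0.21 on chow. The fibroblast list ran from -3.46 to -2.20 against -3.50 to -3.35. Both upper ends are replicate 2, which stood apart, and the other 2 hearts were at 0.39 and 0.47 for the endothelial and at -3.46 and -3.17 for the fibroblast list. Of all genes 13.9% passed in that comparison. From 3 to 8 weeks in MuRF1 -/- hearts 4 of 7 endothelial, 4 of 7 fibroblast and 3 of 10 macrophage markers fell (31.4% of all genes passed), and the fibroblast mean ran from -4.12 to -3.58 against -2.99 to -2.38. At 3 weeks 2 of 7 endothelial and 3 of 7 fibroblast markers rose in either genotype, where 24.3% and 26.5% of all genes passed in either direction. Of the macrophage markers 2 of 10 fell there in MuRF1 +/+ and 3 of 10 in MuRF1 -/- hearts. These are 20% and 30% of the list, near the shares of all genes, so nothing is read from them. The median differences were -0.12 and -0.11. Of the smooth muscle markers 2 of 5 fell against chow at 3 weeks in either genotype and at 8 weeks in MuRF1 +/+ hearts. The list as a whole did not follow them in MuRF1 +/+ hearts, where its median difference was -0.07 at 3 weeks and 0.38 at 8 weeks. In MuRF1 -/- hearts at 3 weeks the median was -0.46. All markers of these lists had a tested probe, and their part in the results above was not tested.

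The 5 genes whose log2 ratios followed Sqstm1 most closely over 19 arrays were Ypel3 (Pearson r = 0.939), Acot1 (0.919), Washc1 (0.914), Pdk4 (0.914) and Wwp2 (0.906). These r describe arrays that share a reference and diet groups, and carry no test. Pdk4, a kinase that inhibits pyruvate dehydrogenase, averaged -0.83, -0.35 and 1.99 on chow, 3 and 8 weeks in MuRF1 +/+ hearts and -0.49, -0.42 and 1.92 in MuRF1 -/- hearts. Acot1, an acyl-CoA thioesterase, averaged -1.94, -1.68 and 0.67 and then -1.10, -1.75 and 0.65. Both were picked for following Sqstm1 over these same arrays, so their high 8-week means come with that choice and nothing is read from them.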

How the data were processed

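Heart RNA (Cy5) and the pup pool (Cy3) were hybridised together on 20 two-colour arrays of design 014868 with no dye swap, read with Feature Extraction 9.5.3.1 per the file headers. The label protocol names Cy3 for heart, the channel labels Cy5, and the channel labels were followed. The deposited files hold spot intensity and background without normalization, plus flags and Agilent's log10 ratio. The authors' deposited log2 values, of unstated processing, served as an alternative. Intensities were background-corrected (normexp, offset 50, leaving out 7 spots on 1 array), loess-normalized in limma 3.58.1 under R 4.3.3, and outlier spots (105 to 423 per array) were set missing. Each gene was represented by its brightest probe and tested if well above background on at least 3 arrays. One limma fit of 6 group means over 20 arrays with intensity trend gave Benjamini-Hochberg adjusted p over 14563 genes, or over 20851 probes for second probes. No array spot of the heart channel was saturated. The number of arrays limits the precision. Alternatives changed background fit, filter, scaling, source of ratios, slide, replicate block, samples, covariate, weights and probe rule, and left out each array. The members and lists were chosen with earlier results of these data known. All 10 members are named. From the pathway lists the genes with the largest passing differences in each comparison were named (4 in each direction, autophagy and lysosome together, and 2 for NRF2), besides the 5 genes most like Sqstm1. Some genes that this rule names are not reported here.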

Additional observations from a re-analysis of the deposited data

Results flagged for a closer look

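In MuRF1 -/- hearts at 3 weeks the Ctsl ratio of replicate 1 was -1.15, apart from the other 3 hearts, whose nearest was at -1.39. In the same group the Lamp1 ratio of replicate 2 was 0.14, below the other 3, whose nearest was at 0.32. Of 25 groups of 4 arrays examined, 2 had such an array, and about 1 in 20 would by chance. Sqstm1 at 3 weeks lay above the chow mean in the 3 MuRF1 +/+ hearts with a value (mean difference 0.24; replicate 4 has none) and below it in every MuRF1 -/- heart (-0.15). The limma test of that difference gave adjusted p = 0.9996 (-0.38 ± 0.21 SE). Ulk1 at 8 weeks lay below the chow mean in every MuRF1 +/+ heart and above it in every MuRF1 -/- heart, with mean differences of -0.27 and 0.26 at the tested probe and -0.41 and 0.19 at the other. The limma test of the difference gave adjusted p = 0.226 at the tested probe and 0.231 at the other.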

How the results depend on the processing

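No member value that passed in any comparison changed sign under an alternative, and 1561 of 1639 values under 15 alternatives other than left-out arrays kept their side of the threshold. Most of these values had not passed to begin with: 329 had passed in the main analysis, and 40 of those lost the call. Of the members called in MuRF1 +/+ hearts at 3 weeks (4), 1 was called with Agilent's ratio, 1 with the authors' log2 values, 1 with the heart channel alone, 0 with the Y-linked covariate and 7 with array weights. At 8 weeks (4) the counts were 2 with the authors' values, 1 with only the groups compared and 2 with the Y-linked covariate. In MuRF1 -/- hearts at 3 weeks (3) they were 1 with the authors' values, 5 without the 2 arrays that stood apart, 0 with the Y-linked covariate, 5 with array weights and 1 with the mean over probes, and at 8 weeks (2), the contrast that chose the group and a description only, 4 with array weights. Array weights gave 7 for 8 against 3 weeks in MuRF1 +/+ hearts (4), 1 for genotype at 8 weeks (0) and 2 for the difference of the 8-week responses (0). Leaving out the 2 arrays gave 1 for each of the latter. Leaving out each array in turn gave 2 to 4 called members in MuRF1 +/+ and 1 to 4 in MuRF1 -/- hearts at 3 weeks, 0 to 2 for genotype at 8 weeks and 0 to 1 for the 8-week difference of responses. Of 28 same-numbered pairs 12 had correlated deviations above 0.1 (range -0.53 to 0.453). The pairs reuse the same arrays, so this does not settle whether the numbers pair the hearts. The replicate block gave 3 called members in MuRF1 +/+ hearts at 3 weeks, 4 at 8 weeks and 3 in MuRF1 -/- hearts at 3 weeks. Over all genes the calls ranged from 340 to 6924 at 3 weeks and from 45 to 4778 at 8 weeks in MuRF1 +/+ hearts (3537 and 2031 in the main analysis), from 436 to 6082 at 3 weeks in MuRF1 -/- hearts (3852), and from 59 to 1415 at 8 weeks (267). For genotype at 8 weeks they ranged from 1 to 3074 (11), and for the difference of the 8-week responses from 0 to 1384 (1). Both upper ends came without MuRF1 +/+ 8-week replicate 1. The cause of these shifts was not tested. Tfeb, above background on 6 arrays, is limited by its signal.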
